A study of Homo sapiens with 10 samples.

Results

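The genes described here are 9 members of the Hippo pathway in human mammary epithelial cells, chosen by symbol: the coactivators YAP1 and WWTR1 (the gene of TAZ), their DNA-binding partner TEAD1, the kinase LATS2, the scaffold proteins AMOTL2 and AJUBA, and the target genes CTGF, CYR61 and ANKRD1. All 9 were found by symbol among 26256 genes in the table of untreated cells and among 55736 genes in the table of treated cells, and all 9 had enough reads to be tested in both.

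MCF10A is an immortalized, nontransformed mammary epithelial cell line. G12V cells are MCF10A cells that received the HRas G12V oncogene by lentiviral transduction together with a GFP vector and were then selected with hygromycin; MCF10A cells without the oncogene are the reference, and no line with an empty vector was analysed here. In the second experiment MCF10A cells without the oncogene were given 10 µM Nutlin-3a, an inhibitor of MDM2, or its solvent DMSO for 4 h. Poly(A) RNA was sequenced from 2 biological replicates of MCF10A and of G12V cells (21538593 to 23683975 counted reads per library) and from 3 of each treatment (15453226 to 17378734 reads).

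In the Hippo pathway a kinase cascade ends in LATS1 and LATS2, which phosphorylate YAP1 and TAZ and so keep them in the cytoplasm. Unphosphorylated YAP1 and TAZ enter the nucleus, bind TEAD proteins and switch on genes such as CTGF, CYR61 and ANKRD1. Much of this control acts on the proteins, so the RNA levels below show the transcripts of the pathway and of its targets and not the phosphorylation or location of YAP1 and TAZ. In mammary epithelium the pathway responds to cell density, shape and attachment.

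The labels were checked first. HRAS was at 69.3 ± 4.77 CPM in MCF10A and 573 ± 82.0 CPM in G12V cells (SD, n = 2; CPM are the reads of a gene scaled to the normalized size of its library), higher by 3.05 on the log2 scale (SE 0.23; adjusted p = 0.00165 in edgeR, by quasi-likelihood and the Benjamini-Hochberg method). MDM2 and CDKN1A, genes known to respond to Nutlin-3a, rose after Nutlin-3a by 2.54 (SE 0.18) and 2.16 (SE 0.13) on the log2 scale, with adjusted p of 0.00133 and 0.000516. Of 7 epithelial markers 5 were lower in G12V cells and DE (adjusted p under 0.05 and absolute log2 fold change above 0.5). Of all 14376 genes tested, 5.01% were DE and higher and 5.95% DE and lower. The summed level of the 7 markers was 6736 and 8202 CPM in the MCF10A and 1363 and 1662 CPM in the G12V libraries. CDH1, the E-cadherin gene, had 10 and 12 reads left in G12V cells and KRT14 had 2 and 3. KRT5, also DE and lower, kept 21893 and 27358 reads. The simple-epithelial keratin genes KRT8 and KRT18 kept at least 3904 reads in every library of the table. KRT18 was still lower in both G12V libraries (log2 fold change -0.71, SE 0.19, adjusted p = 0.0684 in the same edgeR test). Of 7 fibroblast and stromal markers 4 were tested and 1 was DE: LUM had 1 and 0 reads in MCF10A and 28 and 27 in G12V cells, at least 8.94-fold higher against a floor of 3 reads per library (adjusted p = 0.0114). DCN had 557 to 1324 reads and COL1A1 76 to 254, PDGFRB had 9 to 21, and COL1A2, COL3A1 and THY1 had at most 1 read in any library of that table. The list summed to 37.4 and 64.8 CPM in MCF10A and 53.4 and 59.9 CPM in G12V cells. Of 6 blood and endothelial markers 2 were tested and none was DE, also with no unadjusted p under 0.05: CD14 had 396 and 839 reads in MCF10A and 508 and 888 in G12V cells, and PECAM1 37 to 82. CDH5 and VWF had 0 to 16 and 0 to 4 reads, the pan-leukocyte gene PTPRC and the T cell gene CD3E at most 1, and the list summed to 19.7 and 40.2 CPM in MCF10A and 25.4 and 42.8 CPM in G12V cells. The fall of the epithelial transcripts separated the same groups as the comparison of the Hippo genes below, and its part in their differences was not tested. In such bulk RNA fewer cells of a type and less RNA per cell cannot be told apart.

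Between MCF10A and G12V cells WWTR1 rose and was the only one of the 9 to be DE (adjusted p under 0.05 and absolute log2 fold change above 0.5), where 11% of the 14376 genes tested were DE, 5.01% higher and 5.95% lower. CYR61 and ANKRD1 had the largest fold changes, with mean levels of 405 against 111 CPM and of 16.1 against 1.83 CPM, but their replicates spread widely and both missed the threshold. YAP1 and AJUBA were lower in both G12V libraries than in both MCF10A libraries, also without passing the test. In 8 of the 9 genes every G12V library lay on one side of every MCF10A library, above it in 5 and below it in 3. The same held for 54.8% of all tested genes, 27.5% above and 27.4% below. The median log2 fold change of the 9 was 0.47, beside -0.0011 over all genes tested, and the median of the absolute values was 0.61 beside 0.36.

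**Figure D1:**
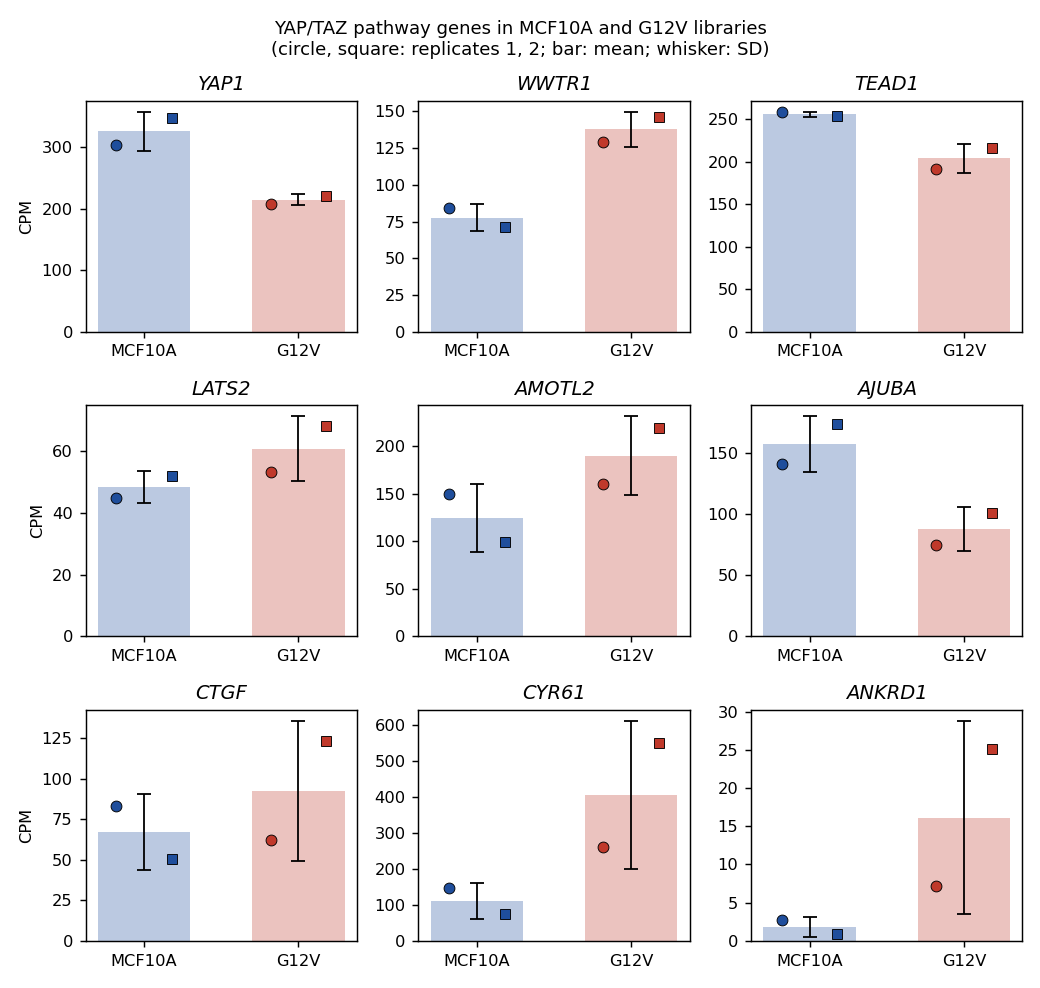
Level of each Hippo pathway gene in CPM (reads scaled to library size, linear axes from 0) in the 2 MCF10A and 2 G12V libraries; points are libraries (circle, replicate 1; square, replicate 2), bars the mean and whiskers the SD. The WWTR1 libraries of G12V (129 and 146 CPM) lie above those of MCF10A (84.2 and 71.2 CPM), and the CTGF libraries of the 2 groups interleave.

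Of the coactivators, WWTR1 (hg19 chr3:149235022-149421060, minus strand) was at 84.2 and 71.2 CPM in MCF10A and at 129 and 146 CPM in G12V cells, a 1.77-fold rise (log2 fold change 0.82, SE 0.19, 95% interval 0.37 to 1.28, adjusted p = 0.0435). The replicates within each group lay close to each other, and the gap between the groups was wider than either spread. This call was near the threshold: without a filter on low counts the adjusted p was 0.0604, and without MCF10A replicate 1, MCF10A replicate 2 or G12V replicate 2 it was 0.157, 0.233 and 0.132. Such a fit leaves 1 library in a group, which is then assumed to vary like the pair of the other group. Without MCF10A replicate 1 no gene of the whole table was DE. YAP1 (chr11:101981192-102104154, plus strand) was at 303 and 348 CPM in MCF10A and at 208 and 221 CPM in G12V cells. Both G12V libraries were below both MCF10A libraries, with a log2 fold change of -0.60 (SE 0.19, 95% interval -1.08 to -0.13), an unadjusted p of 0.0210 and an adjusted p of 0.113.

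Since both genes were read from the same libraries, their ratio does not depend on how the libraries were scaled. There were 3.60 and 4.89 YAP1 reads for each WWTR1 read in the MCF10A replicates, and 1.61 and 1.51 in the G12V replicates. The mean log2 ratio was 2.07 ± 0.31 in MCF10A and 0.64 ± 0.07 in G12V cells (SD, n = 2), a difference of -1.43. An exact two-sided permutation test gave p = 0.333, which is the smallest that 2 against 2 libraries allow. In the Nutlin-3a experiment the same ratio was between 2.997 and 3.45 in all 6 libraries, and the mean log2 ratios differed by -0.0017 between treatments (exact permutation p = 1, smallest possible 0.1).

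TEAD1, the DNA-binding partner that brings the coactivators to their target genes (chr11:12695969-12966284, plus strand), was at 258 and 254 CPM in MCF10A and at 192 and 216 CPM in G12V cells. The difference of -0.33 (SE 0.19) on the log2 scale had an interval of -0.78 to 0.13, which included 0 (adjusted p = 0.344). LATS2, the kinase that phosphorylates YAP1 and TAZ and is itself a known YAP target (chr13:21547176-21635722, minus strand), was at 44.8 and 52.1 CPM in MCF10A and at 53.3 and 68.2 CPM in G12V cells. The highest MCF10A library and the lowest G12V library differed by about their counting error, with 95% Poisson intervals of 49.2 to 55.2 and 50.4 to 56.4 CPM. Its log2 fold change was 0.33 (SE 0.21, 95% interval -0.18 to 0.83, adjusted p = 0.405).

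Neither scaffold protein passed the test. AMOTL2, an angiomotin that holds YAP1 at cell junctions and in the cytoplasm and is also a known YAP target (chr3:134074187-134094259, minus strand), was at 150 and 99.4 CPM in MCF10A and at 161 and 219 CPM in G12V cells. MCF10A replicate 1 lay just below G12V replicate 1, and the log2 fold change was 0.61 (SE 0.27, 95% interval -0.06 to 1.28, adjusted p = 0.236). AJUBA, a LIM domain protein that binds LATS kinases and restrains them (chr14:23440383-23451851, minus strand), was at 141 and 174 CPM in MCF10A and at 75.0 and 101 CPM in G12V cells. Both G12V libraries were lower, with a log2 fold change of -0.84 (SE 0.22, 95% interval -1.39 to -0.29) and an adjusted p of 0.069. DESeq2, edgeR's exact test and scaling by library totals alone each called 4 of the 9 genes DE in place of 1, namely AJUBA, CYR61, ANKRD1 and WWTR1. They called 16%, 17.6% and 11.7% of all genes tested. With 1 library left out, the adjusted p of AJUBA was 0.192 and 0.243 without MCF10A replicates 1 and 2 and 0.216 and 0.0473 without G12V replicates 1 and 2, with log2 fold changes from -1.07 to -0.65.

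CTGF, CYR61 and ANKRD1 are the genes most often read as a measure of YAP and TAZ activity. CTGF and CYR61 encode secreted matrix-associated proteins of the CCN family, and ANKRD1 encodes an ankyrin repeat protein. The 250 bases before the RefSeq start site (GRCh38.p14) were read for the 7 of the 9 genes with an entry and searched on both strands for GGAATG, the core that TEAD proteins bind. It occurred in 3 of the 7, and 11.9% of 27305 promoters of the same length hold it. The 3 sequences are shown because they carry the motif that links the coactivators to their targets, with GGAATG in capitals.
CTGF promoter, chr6:131951373-131951622, minus strand: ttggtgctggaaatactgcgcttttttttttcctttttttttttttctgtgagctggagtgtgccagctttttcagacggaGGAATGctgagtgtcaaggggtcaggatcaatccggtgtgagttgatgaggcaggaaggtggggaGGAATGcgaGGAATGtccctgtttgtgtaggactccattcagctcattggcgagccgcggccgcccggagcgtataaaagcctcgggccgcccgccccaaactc
ANKRD1 promoter, chr10:90921088-90921337, minus strand: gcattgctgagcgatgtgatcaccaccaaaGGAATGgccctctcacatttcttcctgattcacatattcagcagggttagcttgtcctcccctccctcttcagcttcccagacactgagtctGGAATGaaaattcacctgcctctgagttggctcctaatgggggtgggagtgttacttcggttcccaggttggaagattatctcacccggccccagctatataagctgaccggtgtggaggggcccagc
YAP1 promoter, chr11:102110197-102110446, plus strand: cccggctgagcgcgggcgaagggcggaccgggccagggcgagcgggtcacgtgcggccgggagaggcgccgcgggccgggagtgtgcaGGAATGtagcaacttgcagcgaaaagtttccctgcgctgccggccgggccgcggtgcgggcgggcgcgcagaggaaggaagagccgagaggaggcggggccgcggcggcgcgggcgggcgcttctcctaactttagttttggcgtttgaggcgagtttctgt
In CTGF the 3 matches began 169, 104 and 95 bases before the start, in ANKRD1 the 2 matches began 220 and 128 bases before it, and in YAP1 the single match began 162 bases before it. The windows of AMOTL2, AJUBA, WWTR1 and LATS2 do not contain these letters. A match describes the sequence only, and no binding was measured in these libraries.

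CTGF (hg19 chr6:132269317-132272518, minus strand) did not separate the groups. It was at 83.5 and 50.4 CPM in MCF10A and at 62.1 and 123 CPM in G12V cells, so that MCF10A replicate 1 was above G12V replicate 1. The log2 fold change was 0.47 (SE 0.39, 95% interval -0.48 to 1.42, adjusted p = 0.531), and without G12V replicate 2 it turned to -0.11. CYR61 (chr1:86046444-86049648, plus strand) was at 146 and 75.2 CPM in MCF10A and at 260.1 and 550.4 CPM in G12V cells. Both G12V libraries were higher, 3.66-fold on average, with a log2 fold change of 1.87 (SE 0.47, 95% interval 0.73 to 3.01) and an adjusted p of 0.0569. Without MCF10A replicates 1 and 2 its log2 fold change was 2.44 and 1.47 (adjusted p = 0.168 and 0.0719), and without G12V replicates 1 and 2 it was 2.31 and 1.23 (adjusted p = 0.000873 and 0.0511).

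ANKRD1 (chr10:92671857-92681032, minus strand) had few reads in MCF10A: 60 and 21, or 2.73 CPM (95% Poisson interval 2.08 to 3.51) and 0.925 CPM (0.573 to 1.41). In G12V cells it had 168 and 562 reads, or 7.18 and 25.1 CPM. Both G12V libraries were higher, and the log2 fold change of 3.14 (SE 0.77, 95% interval 1.27 to 5.01) was the largest of the 9 genes, with an adjusted p of 0.0539. Without MCF10A replicates 1 and 2 its log2 fold change was 4.12 and 2.56 (adjusted p = 0.193 and 0.0427), and without G12V replicates 1 and 2 it was 3.78 and 1.98 (adjusted p = 0.000171 and 0.0433). In these fits the single library left in a group has no spread of its own, so they show which library the value leans on and do not replace the test of all 4.

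CTGF, CYR61, ANKRD1 and AMOTL2 differed between replicates in the same direction. In G12V replicate 2 the level was higher than in replicate 1 by 3.49 times for ANKRD1, 2.12 times for CYR61, 1.98 times for CTGF and 1.36 times for AMOTL2. In MCF10A replicate 1 it was higher than in replicate 2 by 2.95, 1.95, 1.66 and 1.51 times for the same genes in the same order. For YAP1, WWTR1 and TEAD1 no pair of replicates differed by more than 1.18 times. LATS2 differed less than these 4 genes and was the higher in replicate 2 of both cell types, by 1.28 times in G12V and 1.16 times in MCF10A cells, and AJUBA likewise by 1.34 and 1.23 times. The summed level of 11 immediate-early serum response genes was 1525 and 2115 CPM in MCF10A and 2032 and 3920 CPM in G12V cells. The sum was thus higher in replicate 2 in both, but it is weighted to the genes with the most reads. In each cell type some genes of the list were lower in replicate 2. The part of these serum response genes in the spread of the Hippo genes was not tested.

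CYR61 and CTGF did not keep their ratio. There were 1.75 and 1.49 CYR61 reads for each CTGF read in MCF10A and 4.19 and 4.47 in G12V cells, although the level of each gene differed between G12V replicates by about the same factor. The mean log2 ratio was 0.69 ± 0.16 in MCF10A and 2.11 ± 0.07 in G12V cells (SD, n = 2), a difference of 1.42 with an exact permutation p of 0.333, the smallest possible. After DMSO the ratio was between 2.32 and 3.70 and after Nutlin-3a between 2.68 and 4.59, with mean log2 ratios of 1.51 ± 0.35 and 1.74 ± 0.40 (SD, n = 3; exact permutation p = 0.5 with the pairing left out). Between libraries of the same number the log2 ratio was higher after Nutlin-3a in 3 of 3 pairs, by 0.21, 0.19 and 0.31. An exact two-sided test over these pairs gave p = 0.25, the smallest that 3 pairs allow.

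**Figure D2:**
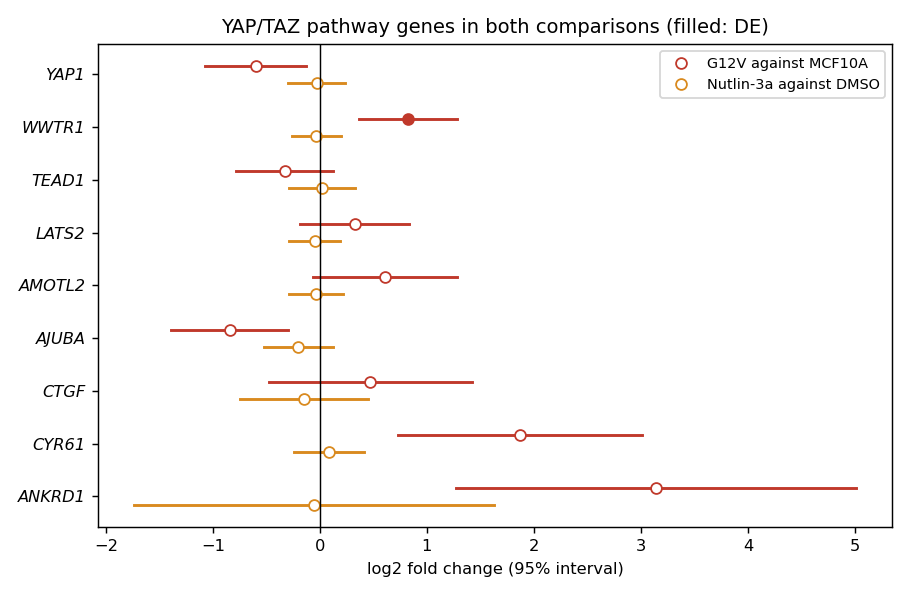
Log2 fold change of each Hippo pathway gene (points) with its 95% interval (lines) for G12V against MCF10A cells (red) and Nutlin-3a against DMSO (orange), with filled points for DE genes. WWTR1 at 0.82 in G12V cells is the only filled point, and every orange point lies between -0.20 and 0.09.

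Beyond the 9 genes, 3 longer lists of pathway genes were examined. Together these lists include all 9, and some genes stand in more than 1 list, so their counts are not independent. Of 10 coactivators and TEAD partners 8 had enough reads, 2 were DE and higher (TEAD2 and WWTR1), 1 was DE and lower (VGLL3), and the median log2 fold change was -0.34. Of all genes tested 5.01% were DE and higher and 5.95% DE and lower. TEAD2, a TEAD family member otherwise prominent in embryonic tissue, had 421 and 425 reads in MCF10A and 834 and 974 in G12V cells (log2 fold change 1.06, SE 0.21, adjusted p = 0.0303). VGLL3, a vestigial-like cofactor that binds TEAD proteins, fell from 2117 and 1886 reads to 318 and 390 (log2 fold change -2.53, SE 0.22, adjusted p = 0.00294).

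Of 26 Hippo kinases and upstream regulators 25 were tested, 3 were DE and higher (LATS1, WWC1 and WWC2), 2 were DE and lower (AMOTL1 and FRMD6), beside the same 5.01% and 5.95% of all genes, and the median was -0.05. LATS1, the sister kinase of LATS2 (chr6:149979289-150039392, minus strand), rose the most. It had 1071 and 1142 reads in MCF10A and 9565 and 16792 in G12V cells, or 49.5 ± 1.15 and 579 ± 240.4 CPM (SD, n = 2), an 11.7-fold rise (log2 fold change 3.55, SE 0.35, 95% interval 2.70 to 4.39, adjusted p = 0.00375). WWC1, the KIBRA scaffold that promotes LATS activity, rose by 1.16 (SE 0.27, adjusted p = 0.0460) on the log2 scale, and its relative WWC2 by 1.03 (SE 0.18, adjusted p = 0.0205). FRMD6, a FERM domain protein upstream of the kinases, fell by 1.48 (SE 0.18, adjusted p = 0.00724) and AMOTL1, an angiomotin like AMOTL2, by 1.12 (SE 0.21, adjusted p = 0.0238). These calls and those of TEAD2 and VGLL3 were lost without MCF10A replicate 1. The calls of TEAD2, WWC1 and WWC2 were also lost without MCF10A replicate 2 or G12V replicate 2, that of AMOTL1 without MCF10A replicate 2 or G12V replicate 1, and that of WWC1 without the filter on low counts (adjusted p = 0.0572).

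LATS1 and LATS2 thus differed by unequal amounts, with LATS1 at 579 CPM and LATS2 at 60.8 CPM on average in G12V cells. Divided by the length of the transcript these levels are 78.7 and 10.96 CPM per kb, against 6.72 and 8.74 CPM per kb in MCF10A. The genes that flank LATS1, looked up after its value had been seen, had log2 fold changes of -0.21 (KATNA1, SE 0.24) and -0.0003 (NUP43, SE 0.17). Of 15 genes tested with a start site within 500 kb of that of LATS1 none was DE and higher, and 3 were DE and lower. Over all genes tested 5.01% were DE and higher and 5.95% DE and lower. With 15 genes a count of 0 is near the share of 5.01%, and a change of the whole region was not tested.

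Of the 22 genes of a YAP/TAZ target signature none was DE in G12V cells by edgeR's quasi-likelihood test, and 8 had an unadjusted p under 0.05, where 25.6% of all genes did. DESeq2 and edgeR's exact test each called 5, where they called 16% and 17.6% of all genes; the 5 were ANKRD1, CYR61, TGFB2 and ASAP1, all higher, and NT5E, lower, named after their values were seen. Of the 22 genes 10 had a positive and 12 a negative log2 fold change, with a median of -0.05 and a range of -1.34 to 3.14. PTPN14, a phosphatase that restrains YAP1, was at 450 ± 138 CPM in MCF10A and 261 ± 61.9 CPM in G12V cells (log2 fold change -0.78, SE 0.30, adjusted p = 0.171). In the CCN family, 4 of 6 genes were tested. WISP2 had 20 and 11 reads in MCF10A and 2 and 1 in G12V cells and was DE (adjusted p = 0.0367), at least 5.32-fold lower against a floor of 3 reads per library; the call was lost with DESeq2 (adjusted p = 0.0936), without the filter on low counts (0.0598) and without either G12V library (0.0568 and 0.116).

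**Figure D3:**
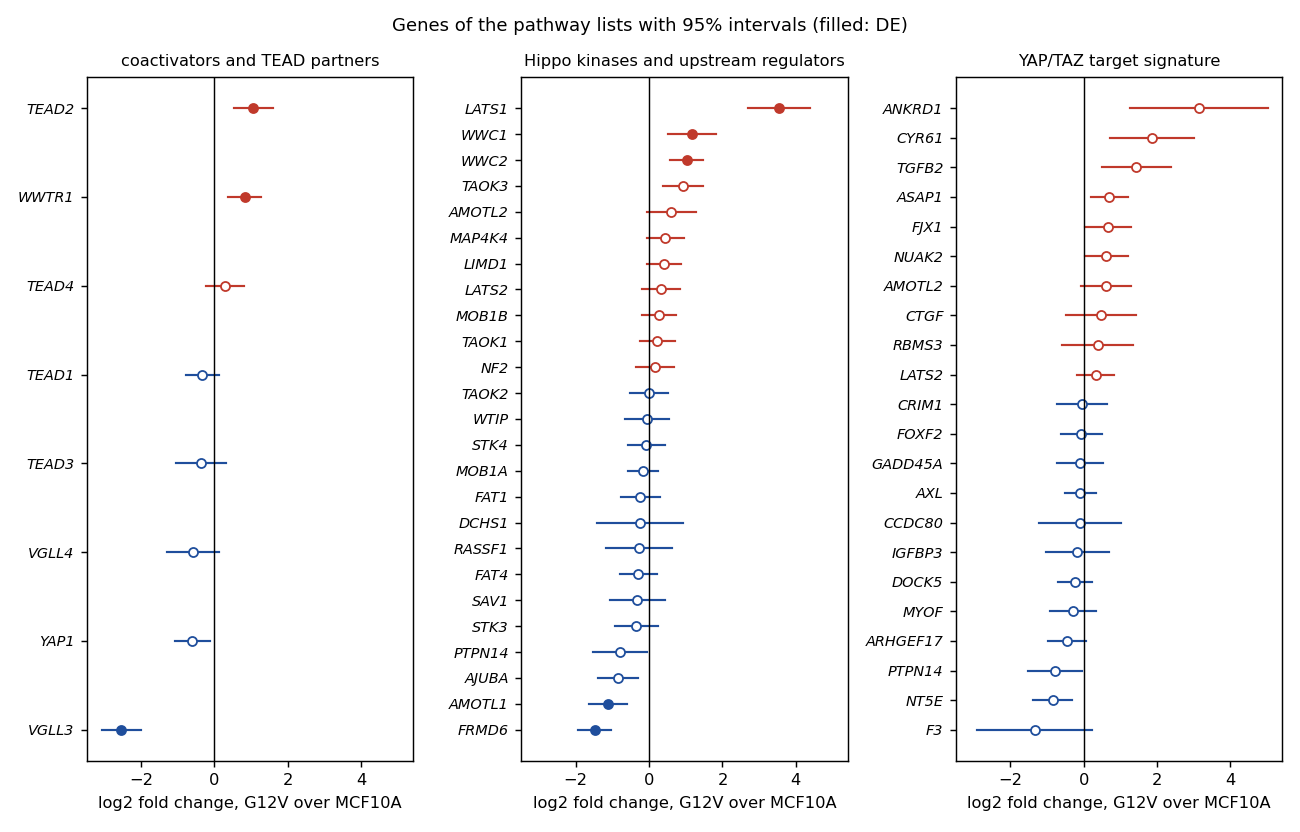
Log2 fold change of G12V over MCF10A cells with 95% intervals for every tested gene of the lists of coactivators and TEAD partners (8 genes), Hippo kinases and upstream regulators (25 genes) and the YAP/TAZ target signature (22 genes), red above and blue below 0, filled where DE. LATS1 at 3.55 and VGLL3 at -2.53 lie farthest from 0 among the DE genes, and no gene of the target signature is filled.

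Other lists of growth factor and cytoskeletal targets were read beside the YAP and TAZ targets. Of the 11 immediate-early genes 10 were tested, with 1 DE and higher (IER3, log2 fold change 1.296, adjusted p = 0.0140), 1 DE and lower (EGR3, -3.21, adjusted p = 0.0360) and a median of 0.27. Of 9 MRTF/SRF cytoskeletal targets 8 were tested, of which 3 were DE, all lower, with a median of -0.55. Beside these counts, 5.01% of all genes tested were DE and higher and 5.95% DE and lower. TAGLN fell from 2665 and 616 reads to 35 in each G12V library, and MYL9 from 668 and 209 to 11 and 20. Both genes thus also differed between the MCF10A replicates, with replicate 1 the higher, as it was for CTGF, CYR61, ANKRD1 and AMOTL2.

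After 4 h of Nutlin-3a none of the 9 genes was DE, where 0.17% of 13529 genes tested were DE. By the quasi-likelihood test without a block, none had an unadjusted p under 0.05, where 3.42% of all genes did. DESeq2, edgeR's exact test and the fit blocked on replicate number called none of the 9 either. They called 0.651%, 0.613% and 1.22% of all genes. In the blocked fit AJUBA had the lowest adjusted p of the 9, 0.253 (log2 fold change -0.20, SE 0.070). Without the block the log2 fold changes ran from -0.20 (AJUBA) to 0.09 (CYR61), and the lowest unadjusted p was 0.190. The groups overlapped in all 9 genes, and 8.07% of all genes tested had groups apart. For the 8 genes other than ANKRD1 every 95% interval lay between -0.75 and 0.45 on the log2 scale, so a change as large as those of MDM2 and CDKN1A lies outside them. These intervals and the SE given below leave out the pairing of libraries by number. In the blocked fit the SE was smaller for each of the 9 genes. It was 0.074 in place of 0.26 for CTGF and 0.070 in place of 0.14 for AJUBA.

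The coactivators and TEAD1 stayed close to their DMSO levels. YAP1 was at 211, 235 and 208 CPM after DMSO and at 231, 220 and 189 CPM after Nutlin-3a in replicates 1, 2 and 3 (log2 fold change -0.03, SE 0.11). WWTR1 was at 62.5, 68.7 and 69.2 CPM and at 66.9, 67.8 and 61.4 CPM (-0.03, SE 0.10). TEAD1 was at 158, 202 and 201 CPM and at 211, 188 and 169 CPM (0.02, SE 0.14), and the order of its replicates was not the same under the 2 treatments.

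Among the regulators, LATS2 was at 81.2, 91.3 and 86.3 CPM after DMSO and at 86.2, 87.6 and 76.1 CPM after Nutlin-3a (log2 fold change -0.05, SE 0.10, 95% interval -0.29 to 0.19). AMOTL2 was at 189, 192 and 226 CPM and at 187, 198 and 207 CPM (-0.04, SE 0.11). AJUBA was at 209, 188 and 247 CPM and at 178, 167 and 214 CPM (-0.20, SE 0.14, 95% interval -0.53 to 0.12). AJUBA was the lower after Nutlin-3a in 3 of 3 pairs of the same number. CTGF was also the lower in 3 of 3 pairs, and CYR61 the higher in 3 of 3. None of these 3 genes passed the test, with or without the block on replicate number. The share of all genes with 3 of 3 pairs in 1 direction was not counted.

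Of the target genes, CTGF and ANKRD1 had the same order of replicates under both treatments, and CYR61 the same highest replicate only. CTGF was at 156, 166 and 96.2 CPM after DMSO and at 136, 157 and 84.8 CPM after Nutlin-3a (log2 fold change -0.15, SE 0.26). Replicate 3 was the lowest of each treatment. CYR61 was at 362, 442 and 356 CPM and at 364, 477 and 389 CPM (0.09, SE 0.14), with replicate 2 the highest of each. ANKRD1 had 6, 37 and 10 reads after DMSO and 6, 26 and 16 after Nutlin-3a, or 0.332 to 2.27 and 0.370 to 1.61 CPM. Its 95% interval of -1.73 to 1.63 was the widest of the 9.

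**Figure D4:**
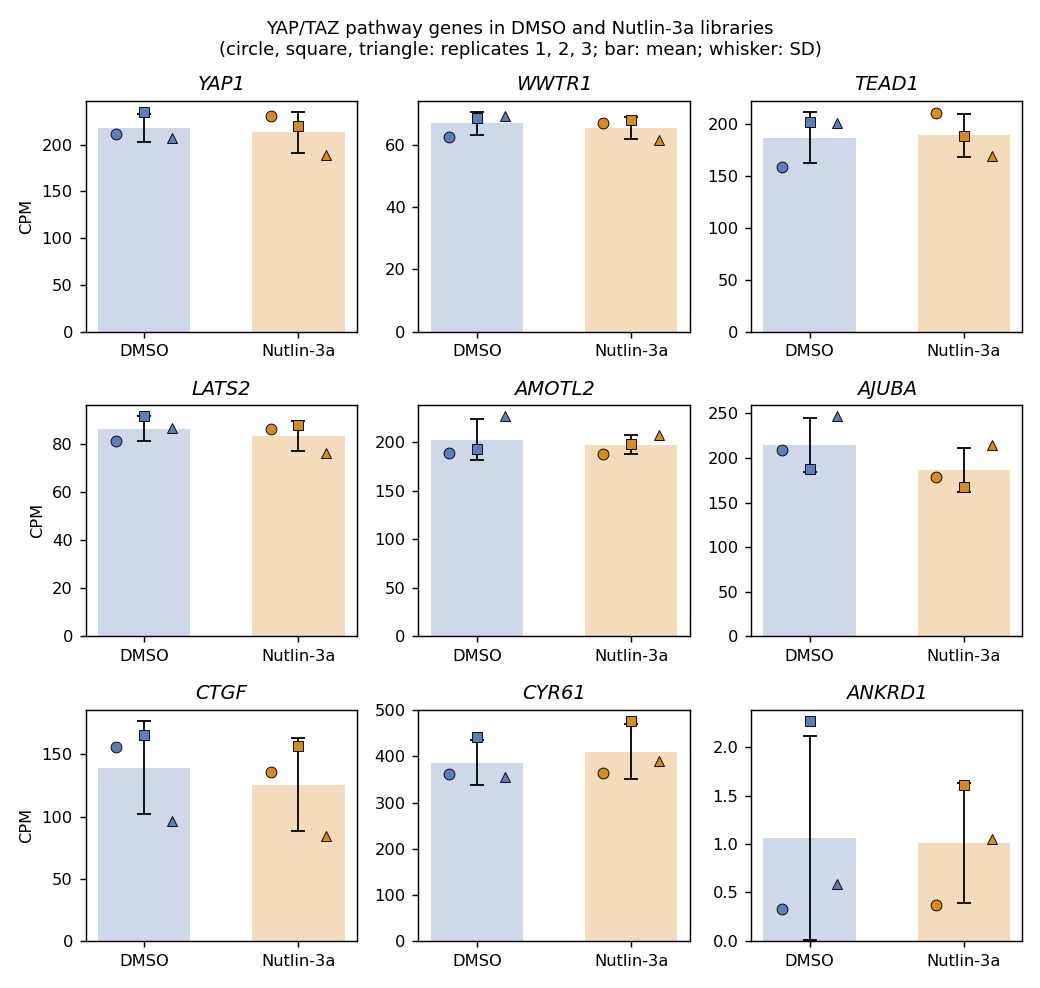
Level of each Hippo pathway gene in CPM (reads scaled to library size, linear axes from 0) in the 3 DMSO and 3 Nutlin-3a libraries; points are libraries (circle, square and triangle for replicates 1, 2 and 3), bars the mean and whiskers the SD. The 2 groups overlap in every panel, and CTGF is lowest in replicate 3 under both treatments (96.2 and 84.8 CPM).

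The wider lists were nearly as quiet. None of the 8 tested coactivators and TEAD partners was DE after Nutlin-3a, and none of the 25 tested kinases and regulators. This held for edgeR's quasi-likelihood test, DESeq2, the exact test and the blocked fit. Without the block, 0 and 1 of them had an unadjusted p under 0.05 by the quasi-likelihood test. The 1 was LIMD1 (log2 fold change -0.24, SE 0.10), named after its value was seen. PTPN14 was at 261 ± 33.7 CPM after DMSO and 278 ± 49.6 CPM after Nutlin-3a (log2 fold change 0.09, SE 0.16, 95% interval -0.27 to 0.45). Of the 22 signature genes none was DE by the quasi-likelihood test without the block. In that fit 2 had an unadjusted p under 0.05, where 3.42% of all genes did. The 2 were GADD45A and FOXF2 (log2 fold change -0.53, SE 0.18), the second named after its value was seen. GADD45A, a stress-response gene, was at 72.2 ± 9.67 CPM after DMSO and 136 ± 17.4 CPM after Nutlin-3a (SD, n = 3), with no overlap between the groups. Its log2 fold change was 0.91 (SE 0.14) with an adjusted p of 0.0718. Blocked on replicate number, its adjusted p was 0.000311, and DESeq2, the exact test and a fit without a filter on low counts also called it DE. Of 11 immediate-early genes and 8 tested MRTF/SRF targets none was DE without the block, with medians of -0.05 and 0.13. In the same fit 0 and 1 had an unadjusted p under 0.05. The 1 was ACTA2, the smooth muscle actin gene, named after its value was seen: it had 162, 129 and 137 reads after DMSO and 296, 233 and 150 after Nutlin-3a (log2 fold change 0.77, SE 0.23, adjusted p = 0.751) and was DE blocked on replicate number (log2 fold change 0.75, SE 0.15, adjusted p = 0.0204).

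Per length of transcript, YAP1 had the highest level of the 9 genes in MCF10A, with 60.3 ± 5.91 CPM per kb (SD, n = 2), followed by CYR61 at 48.6 ± 22.1, AJUBA at 37.8 ± 5.42, CTGF at 28.6 ± 10.0, TEAD1 at 27.2 ± 0.296, AMOTL2 at 25.6 ± 7.35, WWTR1 at 15.4 ± 1.83, LATS2 at 8.74 ± 0.930 and ANKRD1 at 1.02 ± 0.712. Each neighbour from YAP1 down to AMOTL2 lay within the sum of the SDs from the next, and WWTR1, LATS2 and ANKRD1 were each separated from the gene above by more than that. In G12V cells CYR61 stood first at 178 ± 90.1 CPM per kb. YAP1 at 39.8 ± 1.67, CTGF at 39.6 ± 18.5 and AMOTL2 at 39.0 ± 8.50 were not distinguishable from each other, and WWTR1 followed at 27.3 ± 2.38, above TEAD1 at 21.7 ± 1.84. AJUBA at 21.1 ± 4.37 was within the spread of TEAD1, and LATS2 at 10.96 ± 1.90 and ANKRD1 at 9.01 ± 7.07 were last. In the DMSO libraries, the other set of parental cells, CYR61 was first at 170 ± 21.2 CPM per kb (n = 3), followed by CTGF at 59.6 ± 16.1, AJUBA at 51.5 ± 7.16, AMOTL2 at 41.6 ± 4.28 and YAP1 at 40.3 ± 2.78. CTGF, AJUBA, AMOTL2 and YAP1 lay each within the sum of the SDs from the next, and TEAD1 at 19.9 ± 2.65, LATS2 at 15.6 ± 0.915, WWTR1 at 13.3 ± 0.745 and ANKRD1 at 0.593 ± 0.589 followed.

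The parental cells of the 2 experiments did not have the same levels. CYR61 was at 386 ± 48.2 CPM in the DMSO libraries (n = 3) against 111 ± 50.4 CPM in the MCF10A libraries (n = 2), a ratio of 3.49. The ratio was 2.08 for CTGF, 1.78 for LATS2, 1.63 for AMOTL2 and 0.669 for YAP1. The DMSO libraries thus had a mean level of CYR61 near that of the G12V libraries, 405 ± 205 CPM. For YAP1 the means were 218 ± 15.0 CPM after DMSO and 215 ± 9.04 CPM in G12V cells. VGLL3 was at 26.2 ± 8.13 CPM after DMSO, 89.6 ± 9.30 CPM in MCF10A and 15.5 ± 2.69 CPM in G12V cells. WWTR1, ANKRD1 and AJUBA went the other way, with the MCF10A mean between those of the DMSO and G12V libraries. WWTR1 was at 66.8 CPM after DMSO, 77.7 CPM in MCF10A and 138 CPM in G12V cells. ANKRD1 was at 1.06, 1.83 and 16.1 CPM and AJUBA at 214.5, 157.5 and 87.8 CPM in the same order. LATS1 was higher after DMSO than in MCF10A, at 66.2 against 49.5 CPM, but far below the 579 CPM of G12V cells. The 2 tables were normalized separately and rest on different annotations, so these ratios were not tested, and experiment, solvent and annotation cannot be told apart.

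Over all 10 libraries, with the log2 CPM of each gene centred within its table, 8718 genes were compared with CTGF and CYR61. The smallest root mean square difference from CTGF was that of BHLHE40 (0.156 log2 units), followed by FAM114A1 (0.189), XBP1 (0.211), PRDM10 (0.215) and LMO4 (0.216). For CYR61 it was CCBE1 (0.195), followed by SLC39A8 (0.212), DUSP4 (0.212), MTMR11 (0.233) and COL4A1 (0.235). CTGF and CYR61 thus shared none of their 5 closest genes. The libraries share a parental cell line, and those of 1 experiment share a table and a similar depth; the likeness is a description without a test.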

How the data were processed

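RNA-seq was analysed from 2 MCF10A, 2 G12V, 3 DMSO and 3 Nutlin-3a libraries, grouped by their labels. The authors aligned the reads with TopHat to hg19, used HTSeq for the counting and deposited the counts of reads per gene as they were, with no normalization, in a table for each experiment. The annotations and the strand setting of the counting are not given in the sources used here, and the library kit does not mark strand; genes that overlap the 9 had at most 12 reads in any library.

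Each table was fitted on its own with edgeR 4.0.16 and limma 3.58.1 in R 4.3.3: filterByExpr, TMM normalization and the quasi-likelihood test with Benjamini-Hochberg adjustment over all genes tested. A gene was DE at an adjusted p below 0.05 with a log2 fold change beyond 0.5 in either direction, as in the study's methods. CPM use TMM-scaled library sizes, log2 fold changes a prior count of 0.125, and levels per kb the canonical GENCODE transcript. Poisson intervals (95%) and the floor of 3 reads cover counting error only. The fits without the block were run on simulated data with 200 changed genes and no pairing between libraries. That run does not bear on the blocked fits or on paired libraries. The other comparisons used exact two-sided permutation tests of the 2 ratios in the 2 experiments, 4 tests in all, without adjustment; tests over pairs of the same number were added after the data had been seen.

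Named were the 9 genes, the listed pathway genes that were DE (in the Nutlin-3a experiment also those DE with the block), PTPN14, the label checks (1 of which is not reported here), and the 5 genes most like CTGF and CYR61 among those with at least 10 CPM; of other lists at most 2 examples were named, the DE genes with the largest change. The 9 genes and the lists were chosen with earlier results of these data known. The numbers of the Nutlin-3a and DMSO libraries pair them: after subtraction of group means, same-numbered libraries correlated at 0.641, 0.649 and 0.676 and the others at -0.499 to -0.206. As alternatives, the counts were tested with DESeq2 1.42.0 and with edgeR's exact test, with 3 other scalings, blocked on replicate number, unfiltered or filtered at 1 CPM in 2 libraries, at an unadjusted p with a fold above 1.3, with a prior count of 2, and with single libraries left out. Figures were drawn in Python 3.11.15 (numpy 2.4.6, pandas 2.3.3, matplotlib 3.10.9).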

Additional observations from a re-analysis of the deposited data

How the results depend on the processing

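With 2 libraries a group, the calls between MCF10A and G12V cells depended on the settings. Of the 9 Hippo genes 1 was DE, against 4 with DESeq2, 4 with edgeR's exact test, 4 with library totals alone, 5 at an unadjusted p with a fold above 1.3 and 0 without a filter; leaving out one library gave 0 to 3. Of all genes 1575 were DE, against 2307 with DESeq2, 2526 with the exact test, 3676 at an unadjusted p and 0 to 2129 with one library left out. The 5 calls among kinases and regulators became 8 at an unadjusted p and 0 to 5 with one library left out, and the 3 among coactivators 0 to 3. The target signature went from 0 to 5 (DESeq2), 5 (exact test), 2 (library totals), 8 (unadjusted p) and 0 to 3 (one library left out). The lowest counts came without MCF10A replicate 1, where 0 genes were DE. The cause of these shifts was not tested.

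With the replicate number as a block, 6 of the 9 were DE in G12V cells (AMOTL2, AJUBA, YAP1, CYR61, ANKRD1 and WWTR1), 9 kinases and regulators, 10 signature genes and 4158 of all genes. Same-numbered libraries correlated at 0.535 and the others at -0.535. With 2 libraries a group, centred on their mean, the 2 values must be equal and opposite. They cannot show whether libraries of the same number are paired, and the labels give only the number. After Nutlin-3a the block gave 165 DE genes and 1 signature gene, GADD45A, made ACTA2 of the MRTF/SRF targets DE, and changed no other call named here.

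After Nutlin-3a 23 genes were DE, against 88 (DESeq2), 83 (exact test), 99 (no filter), 332 (unadjusted p) and 7 to 11 (one library left out). The signature count of 0 became 1 with DESeq2, 1 with the exact test, 1 without a filter and 2 at an unadjusted p. Log2 fold changes near 0 changed sign. That of TEAD1 after Nutlin-3a was -0.013 with library totals. With one library left out it ran from -0.089 to 0.091 for TEAD1, -0.047 to 0.21 for PTPN14, -0.57 to 1.13 for ANKRD1, -0.090 to 0.049 for YAP1, -0.086 to 0.051 for AMOTL2, -0.040 to 0.19 for CYR61, -0.35 to 0.068 for CTGF, -0.078 to 0.0099 for WWTR1 and -0.092 to 0.0097 for LATS2. In G12V cells it ran from -0.11 to 0.89 for CTGF and from -0.17 to 0.13 for MDM2.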
